A study of Mus musculus with 3 samples.

Results

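Transcripts of the cytosolic ribosomal proteins were compared between cardiac myofibroblasts in 3 states: adherent, on plastic; non-adherent, floating in low-attachment dishes; and re-adherent, back on plastic. The genes were taken by name. A probe belonged to the set when its RefSeq transcript carried a symbol made of Rpl or Rps and a number, or Rpsa, leaving out the S6 kinases and pseudogenes. Of 20660 genes with a symbol on the array, 82 met this rule, 49 for the large and 33 for the small ribosomal subunit. Of these, 80 were among the 15394 genes with a probe well above background on 1 array or more, 47 for the large and 33 for the small subunit, and all 80 were well above background on all 3 arrays. Rpl10l and Rpl3l were not well above background on any array. The annotation held 5 further symbols of this form, Rpl32p, Rpl6l, Rps12l1, Rps3a2 and Rps3a3, for which no probe was matched.

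Each group was 1 array, hybridised with RNA that the design text describes as a mixture from several hearts. The cells came from hearts of male C57BL/6J mice, given as 8 weeks old in the sample labels and as up to 10 weeks old in the protocols, taken out 3 days after the left anterior descending artery had been tied off for good, which causes an infarct. Cells that attached to plastic overnight and carried no CD45, a surface protein of leukocytes, were taken as myofibroblasts in every group. According to the methods, the adherent cells had 7 days on plastic, the non-adherent cells a further 7 days afloat, and the re-adherent cells 7 more days on plastic. Cell number fell steeply in suspension, which the methods put down to anoikis, the death of cells that lose their hold. The 3 states follow each other, so that time in culture cannot be told apart from attachment. No group was from an uninjured heart, and none carried a genetic change.

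The ribosome is built from ribosomal RNA and a large set of small, mostly basic proteins, which are made in equal numbers for each subunit and joined to the RNA in the nucleolus. The genes for these proteins lie on many chromosomes, are transcribed at high rates in growing cells and give short, stable mRNAs. Most of these mRNAs begin with a C followed by a run of pyrimidines, the terminal oligopyrimidine (TOP) tract, through which the kinase mTORC1 and the RNA-binding protein LARP1 set how much of the mRNA is translated and kept. An array measures the mRNA and not its translation. When fibroblasts are activated in the injured heart they make large amounts of contractile and matrix protein, which takes ribosomes.

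Starts of transcription are shown for some of the members that stood at the ends of the range in suspension and for Rps6, the substrate of the S6 kinases. The sequences are from RefSeq on assembly GRCm38.p6, of which 62 of the 82 members had a promoter window, 74 windows in all. Each stretch runs from 10 bases before the annotated first base to 20 bases from it, in the direction of transcription, and capitals mark a TOP tract at the start, taken as a C at the first base or beside it followed by at least 4 pyrimidines.
Rpl18 (chr7:45718061-45718090, plus strand): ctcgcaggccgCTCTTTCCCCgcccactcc
Rps21 (chr2:180257369-180257398, plus strand): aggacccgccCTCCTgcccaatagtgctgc
Rps18 (chr17:33955646-33955675, minus strand): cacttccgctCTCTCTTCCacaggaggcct
Rpl14 (chr9:120571507-120571536, plus strand): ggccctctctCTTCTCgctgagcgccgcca
Rpl27a (chr7:109519185-109519214, plus strand): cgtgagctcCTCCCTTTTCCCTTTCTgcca
Rps6 (chr4:86857348-86857377, minus strand): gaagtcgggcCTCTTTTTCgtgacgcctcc
Rps2 (chr17:24720053-24720082, plus strand): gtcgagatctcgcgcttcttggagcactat
Rpl10 (chrX:74270806-74270835, plus strand): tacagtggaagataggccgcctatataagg
Rpl23 (chr11:97782420-97782449, minus strand): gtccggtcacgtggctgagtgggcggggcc
Rpl27a had the longest tract of those shown, while Rps2, Rpl10 and Rpl23 had none at the annotated first base. Windows of Rpl39l, Rps28, Rpl7l1, Rpl22l1 and Rpl37a, also near the ends, and another window of Rps21 had no tract and are not shown. An annotated start that is off by a few bases hides a tract, so a missing tract says only that these letters were not at that base.

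Over genes with a promoter window, 19 of 62 members (30.6%) had a TOP tract at an annotated start, against 2030 of all 27025 genes (7.51%). The letters CCGGAAG, which ETS factors bind, were found on either strand of the 300-base window in 25 members (40.3%) and in 9.93% of all genes. The letters AAGATGGC, bound by YY1, were found in 6 members (9.68%) and in 3.19% of all genes, and TATAAA in 7 members (11.3%) and 15.7% of all genes. A gene counted when any of its windows held the letters. The measured members with and without a TOP tract at the annotated start had nearly the same median log2 difference in suspension, -0.65 over 19 genes and -0.67 over 41 genes.

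In suspension the ribosomal protein transcripts were lower as a group. All 80 measured members were lower in non-adherent than in adherent cells, with a median log2 difference of -0.68, while the median of all 15394 genes was -0.07. The quartiles of the members were -0.81 and -0.59 on the log2 scale, a narrow band beside that of all genes, -0.62 to 0.60. Of the members, 62 were over 1.5-fold lower, where 26.3% of all genes were, and none was over 1.5-fold higher, where 25.4% of all genes were. The differences were small one by one: 5 members were over 2-fold lower against 14.7% of all genes, and none was over 2-fold higher against 17.2%. Without scaling between arrays, the probes of the 82 members held 9.57% of the summed signal for adherent, 7.59% for non-adherent and 10.0% for re-adherent cells. With 1 array per group no difference has a replicate check and no test was possible. The errors given below are the scanner software's errors of both spots, 0.20 in the median over the members, and cover technical error within arrays only.

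After the return to plastic the same transcripts were higher. All 80 members were higher in re-adherent than in non-adherent cells, with a median log2 difference of 1.04, and the median of all genes was 0.08. Of the members, 75 were over 1.5-fold higher (27.7% of all genes) and 44 over 2-fold higher (15.6%). None was over 1.5-fold lower (24.8% of all genes) or over 2-fold lower (16.3%). This comparison and the one before share the non-adherent array, so an error of that array would enter both with opposite sign.

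**Figure D1:**
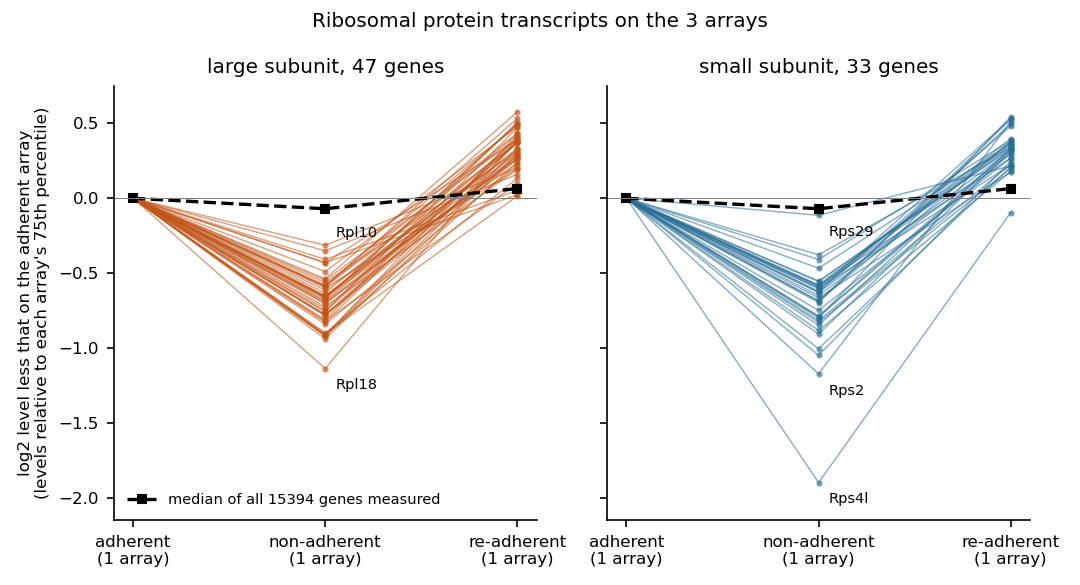
Level of each measured ribosomal protein gene on the 3 arrays as a log2 difference from its level on the adherent array, for 47 large and 33 small subunit genes, with the median of all 15394 genes as a dashed line. Every line goes below 0 on the non-adherent array, lowest for Rps4l at -1.90 and closest to 0 for Rps29 at -0.11, and 79 of 80 end above 0 on the re-adherent array.

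Markers of other cells moved between the same arrays. Of 12 macrophage markers 11 were measured, among them Ptprc (which encodes CD45), Csf1r and Adgre1, and 10 of the 11 were higher in non-adherent than in adherent cells, with a median log2 difference of 2.68. Itgam, at -0.84, was the exception. Their summed level, in multiples of the array's 75th percentile, was 197 for adherent, 1138 for non-adherent and 367 for re-adherent cells, and all 11 were well above background on every array. The summed level of 4 genes of the contractile apparatus of myofibroblasts, Acta2, Tagln, Myl9 and Cnn1, was 1624, 18.8 and 1618. Of 8 fibroblast markers, 6 were lower in suspension with a median of -0.63, with summed levels of 1098, 830 and 829. Of 8 endothelial markers, 5 were higher in suspension with a median of 0.80. Their summed levels were 36.5, 37.0 and 38.9, but most of them were lower in re-adherent cells. There 6 of 8 were lower than in adherent cells, with a median of -1.77, and 6 lower than in non-adherent cells, with a median of -2.35. On that array 6 of the 8 were well above background. Of 8 cardiomyocyte markers 6 were measured, at summed levels of 1.27, 2.02 and 3.46. The part of these shifts in the ribosomal protein result was not tested. In such bulk RNA, fewer cells of a type and less RNA per cell cannot be told apart.

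The size of the shift depended on the scaling of the arrays, while the members' median in suspension was below 0 under every alternative. Most members had bright probes. Of the 80, 57 had a mean signal of at least 100000 intensity units over the 3 arrays, and 134 other genes had such probes. Those 134 genes had a median log2 difference of -0.35 in suspension, with 102 lower and quartiles of -0.78 and -0.06. For the 57 members of that brightness the median was -0.66. On the return to plastic the medians were 0.51 and 0.99. The 134 genes leave out probes without a symbol. Of all 569 probes of that brightness, 89 were of members and 324 of the others had no symbol. The probes outside the members had medians of -0.61 in suspension and 0.92 on the return, close to those of the members. Quantile normalisation, which gives every array the same distribution of signals, left a median of -0.25 for the members in suspension, with 73 of 80 lower and 6 over 1.5-fold lower, where 24.7% of all genes were. Cyclic loess, which removes differences that follow brightness, left a median of -0.24, again with 73 of 80 lower and 6 over 1.5-fold lower, where 21.5% of all genes were. On the return to plastic quantile normalisation left a median of 0.29 with 75 of 80 higher and 7 over 1.5-fold higher (23.6% of all genes). Cyclic loess left a median of 0.23 with 71 of 80 higher and 6 over 1.5-fold higher (22.0% of all genes). Under both methods the members' share past 1.5-fold was thus below that of all genes, in both comparisons. The E1A spike-in probes bind control RNA that is added in equal amounts to each labelling reaction. Centring on these probes gave the members a median of -0.98 in suspension, with 80 of 80 lower and 35 over 2-fold lower. The median of all genes was then -0.37. Under this scaling 39.2% of all genes were over 1.5-fold lower, and their share past 2-fold was not counted. The part of probe brightness in the result was not tested.

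**Figure D2:**
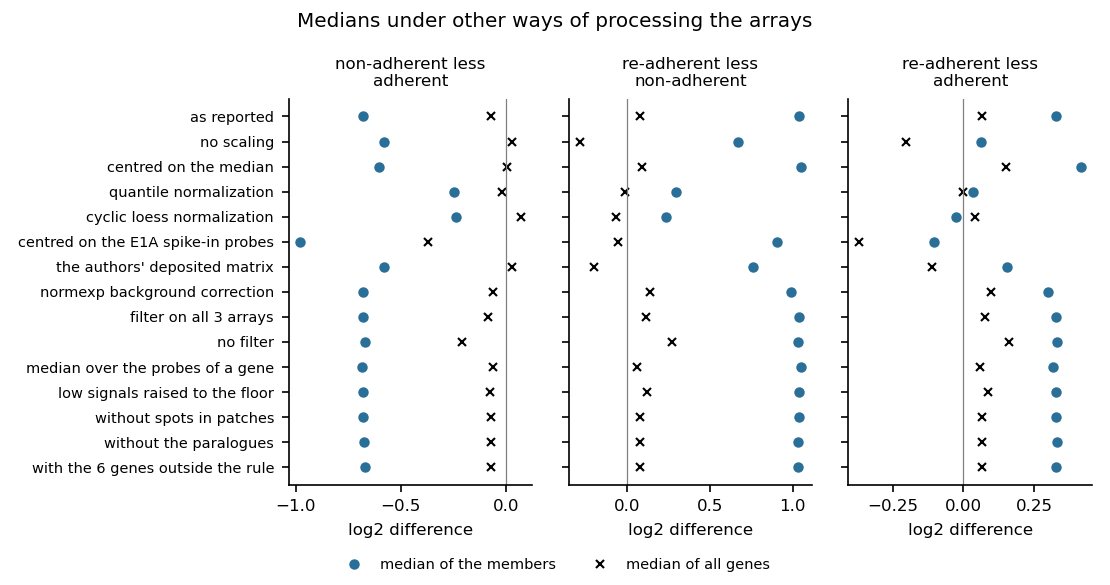
Median log2 difference of the measured ribosomal protein genes (circles) and of all genes (crosses) under the processing as reported and 14 alternatives, one panel per pair of arrays. The members lie left of all genes in suspension and right of them on re-adhesion in every row, nearest to all genes after quantile and cyclic loess normalisation, and in the right panel the circles fall on both sides of 0.

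The large and small subunits had nearly equal medians in every comparison. In suspension the median log2 difference was -0.69 for the 47 large subunit genes and -0.67 for the 33 small subunit genes, a difference of -0.02 between the medians. On the return to plastic the medians were 1.04 and 1.03, and for re-adherent against adherent cells 0.33 and 0.33. The spread within a subunit was wider than the difference between the subunits, with interquartile ranges in suspension of 0.21 for the large and 0.23 for the small subunit. Over 1.5-fold lower in suspension were 37 of 47 large and 25 of 33 small subunit genes, and 26.3% of all genes. Large subunit probes held 58.2% of the members' summed signal in adherent, 58.2% in non-adherent and 58.3% in re-adherent cells.

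Within the small subunit, the proteins of the body and platform and those of the head were compared. The 17 measured genes of the body and platform had a median of -0.75 in suspension and the 14 of the head a median of -0.63, and the ranges overlapped, -1.17 to -0.41 for the body and -1.01 to -0.11 for the head. In the large subunit, the 8 proteins at the rim of the tunnel through which the new chain leaves had a median of -0.65. Each of these groups was entirely lower in suspension and entirely higher on the return to plastic, as were all measured members.

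Rps2, a protein of the small subunit body near the channel by which mRNA enters, had the largest difference among the standard ribosomal proteins. Its log2 level relative to the array's 75th percentile was 8.41 in adherent, 7.24 in non-adherent and 8.92 in re-adherent cells. Rps2 was thus lowest in suspension and highest after the return, with log2 differences of -1.17 ± 0.20 and 1.68 ± 0.20. A second probe gave -1.33 and 1.76.

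Rpl18 of the large subunit followed with log2 levels of 7.57, 6.43 and 7.97, a difference of -1.14 ± 0.20 in suspension and 1.54 ± 0.20 after it. Rps21, which lies on the body of the small subunit, had levels of 6.14, 5.09 and 6.38 and a difference of -1.05 in suspension. Rps18, of the head, had levels of 6.94, 5.94 and 7.15 and a difference of -1.01. These genes and Rps4l were the 5 members over 2-fold lower in suspension by their brightest probe. Rpl14 at -0.94, Rpl39l at -0.92 and Rpl27a at -0.92 came next, and the software error of 0.20 does not separate them from each other or from Rpl23a at -0.92 and Rpl8 at -0.91.

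At the other end stood Rps29, a small zinc-binding protein of the head. Its log2 levels were 8.44, 8.33 and 8.66, so that the non-adherent array was lower by less than the software error, -0.11 ± 0.20, and the re-adherent array higher by 0.33 ± 0.20. The 2 other probes of Rps29 gave -0.22 and -0.21 in suspension. Rpl10, which is among the last proteins to join the large subunit and reaches towards the peptidyl transferase centre, had levels of 9.02, 8.71 and 9.22. Its difference was -0.31 in suspension and 0.52 on the return, and its other probes gave -0.35 and -0.35 in suspension. Rpl23 had levels of 8.79, 8.44 and 8.95 and a difference of -0.35. Rps28 at -0.38, Rps14 at -0.41, Rpl7l1 at -0.41, Rpl22l1 at -0.43 and Rpl37a at -0.43 made up the rest of the 8 smallest differences. Several bright probes each gave like values for Rps29, Rpl10 and Rpl23.

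**Figure D3:**
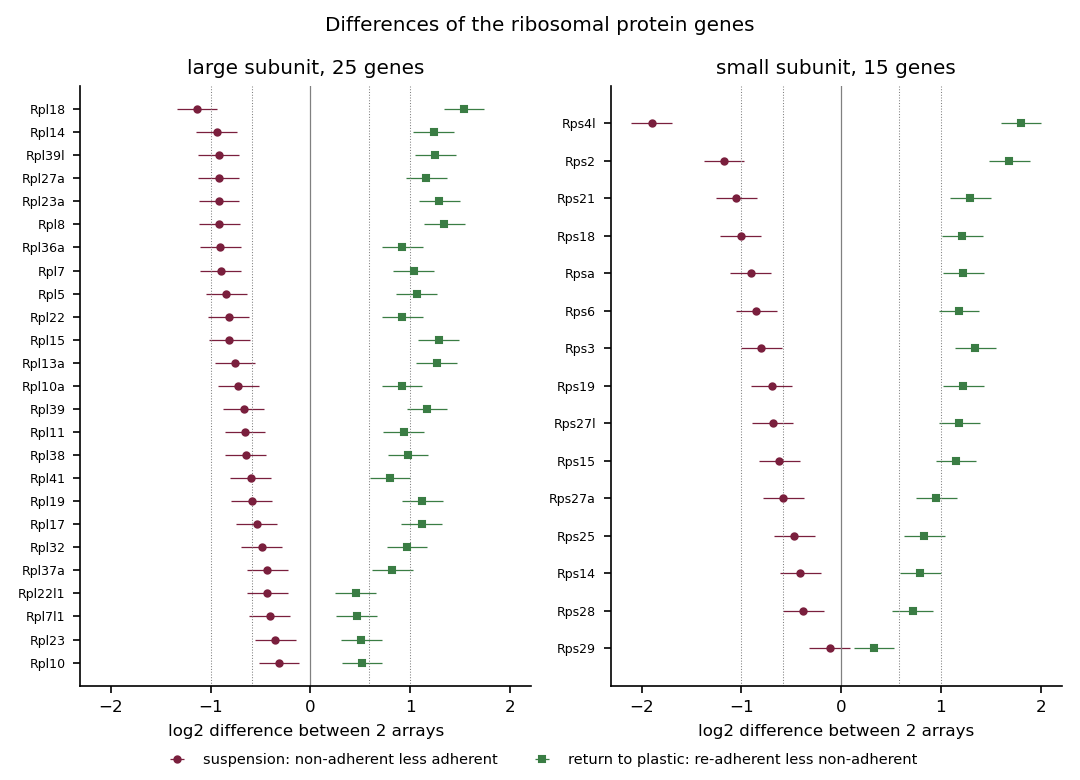
Log2 difference of 40 named members, 25 of the large and 15 of the small subunit, in suspension (circles) and on the return to plastic (squares), with the software error of both spots as bars and dotted lines at 1.5-fold and 2-fold. Genes are ordered by the difference in suspension, from Rpl18 to Rpl10 in the large and from Rps4l to Rps29 in the small subunit, and no circle lies right of 0.

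On the return to plastic the 8 largest differences were those of Rps4l (1.80), Rps2 (1.68), Rpl18 (1.54), Rps3 (1.34), Rpl8 (1.34), Rps21 (1.30), Rpl23a (1.29) and Rpl15 (1.28). The 8 smallest were those of Rps29 (0.33), Rpl22l1 (0.45), Rpl7l1 (0.46), Rpl23 (0.51), Rpl10 (0.52), Rps28 (0.72), Rps14 (0.80) and Rpl41 (0.80), the last a peptide of the large subunit. Neighbours in this order differ by less than the software error.

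Several measured members are copies or relatives of another ribosomal protein gene. Rps27l, a relative of Rps27 that the tumour suppressor p53 induces, had log2 levels of 6.85, 6.17 and 7.35 and differences of -0.69 in suspension, near the members' median, and 1.19 on the return, above their upper quartile of 1.16. Rps27 itself gave -0.55 and 0.88. Rpl22l1, the relative of Rpl22, had levels of 6.32, 5.89 and 6.35 and differences of -0.43 and 0.45, and Rpl22 had levels of 7.84, 7.02 and 7.94 and differences of -0.82 and 0.92. Rpl7l1, which takes part in the making of the large subunit, had levels of 0.61, 0.20 and 0.66 and differences of -0.41 and 0.46, against -0.90 and 1.03 for Rpl7. Both relatives thus had smaller differences than their partners, in both directions. Rpl39l, known from the testis, had levels of -1.01, -1.93 and -0.68, with differences of -0.92 and 1.25, against -0.67 and 1.17 for Rpl39.

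Rps4l, matched through a non-coding RefSeq record, had the largest difference of all members. Its processed signal was 9399 in adherent, 2696 in non-adherent and 7316 in re-adherent cells, and its log2 differences were -1.90 ± 0.20 and 1.80 ± 0.20. Against adherent cells, re-adherent cells gave -0.10 for Rps4l, within the software error, and every other member was above 0. The X-linked gene of the small subunit, Rps4x, gave -0.79 and 1.11. Rpl32l, a copy of Rpl32, gave -0.58 and 1.07 against -0.49 and 0.97 for Rpl32. A probe can bind transcripts of near-identical copies, and ribosomal protein genes have many processed pseudogenes, so the values of such copies and of their partners are uncertain. Rpl3l, the relative of Rpl3 found in heart and skeletal muscle, had processed signals of 4.49, 13.3 and 5.04, and Rpl10l, of the testis, 6.90, 13.0 and 9.23 on its brighter probe, none well above background. Of the genes named as pseudogenes, which the rule left out, Rps15a-ps6 gave -0.65 and Rpl34-ps1 -0.58 in suspension.

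Members with functions known outside the ribosome or in disease showed the common pattern. Rpl5 and Rpl11 carry the smallest ribosomal RNA into the large subunit and, when free, bind MDM2 and so stabilise p53. Rpl5 had log2 levels of 6.81, 5.97 and 7.04 and Rpl11 of 8.90, 8.25 and 9.18, so both were lower in suspension, by -0.84 and -0.65, and higher afterwards, by 1.07 and 0.94. Rpsa, also known as the laminin receptor precursor, had levels of 9.12, 8.22 and 9.44 and a difference of -0.91 in suspension. Its other probes gave larger differences, -1.32, -1.27 and -2.31. Rps6 had levels of 7.82, 6.98 and 8.16 and a difference of -0.85, and its other probes gave -0.82 and -0.80. By these scaled levels, all were lowest in suspension and highest on the re-adherent array. Without scaling, Rpl5 had a signal of 73134 in adherent and 71010 in re-adherent cells, while Rpl11, Rpsa and Rps6 remained higher in re-adherent cells.

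Rps19, the gene most often altered in Diamond-Blackfan anaemia, had log2 levels of 7.16, 6.47 and 7.69 and a difference of -0.70. Rps3, which lines the entry of the mRNA channel, had levels of 6.86, 6.06 and 7.41 and a difference of -0.80. Rpl38, needed for translation of a subset of Hox mRNAs in the mouse embryo, had levels of 8.50, 7.85 and 8.83 and a difference of -0.65. Rps25 and Rpl10a, known from translation of selected mRNAs, had differences of -0.47 and -0.72. These differences lay between those of Rps18 and Rpl37a, inside the range of the other members.

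Rpl13a and Rpl32, which are used as reference genes in quantitative PCR, were not level between the arrays. Rpl13a had log2 levels of 7.98, 7.23 and 8.49, lower by -0.76 in suspension and higher by 1.26 on the return. Its other probes gave -1.60 and -1.43 in suspension. Rpl32 had levels of 8.49, 8.00 and 8.97, lower by -0.49 and higher by 0.97. Rps27a, whose product is a fusion of ubiquitin with a ribosomal protein, had levels of 8.81, 8.24 and 9.19 and differences of -0.58 and 0.96.

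Most genes gave the same answer with each of their probes. The 82 members had 170 probes, of which 164 were well above background on all 3 arrays, and 161 of these were lower in suspension. Over the 50 members with several such probes, the median SD between the probes of a gene was 0.08 on the log2 scale in suspension. The 89 probes with a mean signal of 100000 and over had a median of -0.66 and an SD of 0.21 in suspension, and the 19 probes under 10000 a median of -0.86 and an SD of 0.88, so the disagreements lay mainly among the dim probes.

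Some brighter probes disagreed too. The brightest probe of Rpsa gave -0.91, but its next brightest gave -1.32, another gave -1.27 and a dim one -2.31. For Rpl13a the brightest probe gave -0.76, and 2 probes with signals of 11185 to 35785 gave -1.60 and -1.43. In the opposite direction, dim probes of Rps3 and Rpl22 were higher in suspension by 0.54 and 0.42, where the bright probes of these genes gave -0.80 and -0.82. A probe of Rpl23 spotted 10 times had mean signals of 5609, 6222 and 4648, a log2 difference of 0.05 ± 0.06 (SD over 10 spots of 1 array pair) in suspension and of -0.06 ± 0.05 on the return, and both bright probes of Rpl23 gave -0.35 in suspension. A probe of Rps27a for another transcript record was not well above background in suspension, and was at least 4.08-fold lower there than on the adherent array. What these differing probes bind was not tested.

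**Figure D4:**
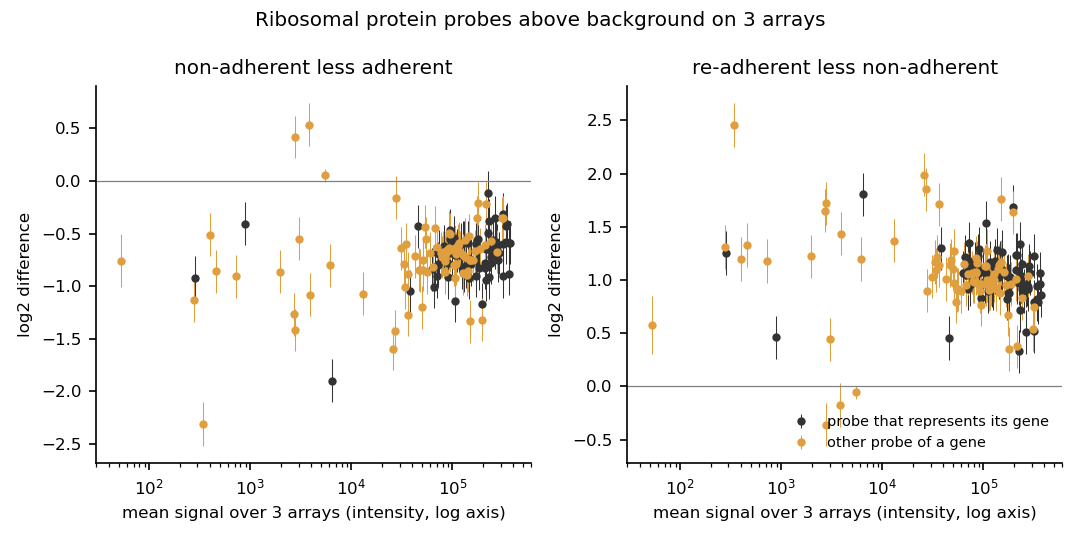
Log2 difference of 159 ribosomal protein probes well above background on all 3 arrays against their mean signal (log axis), in suspension (left) and on the return to plastic (right), with software errors as bars. Probes with a mean signal of at least 100000 form a band between -1.33 and -0.11 on the left, and those under 10000 scatter from -2.31 to 0.54.

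Re-adherent cells were set against adherent cells to see whether the levels came back. Of the 80 members, 79 were above their adherent level, with a median log2 difference of 0.33, where all genes had a median of 0.06. None was past 1.5-fold in either direction, where 10.8% of all genes were lower and 12% higher, and none past 2-fold, where 4.9% were lower and 4.84% higher. The 8 largest differences were those of Rpl17 (0.58), Rps3 (0.54), Rpl19 (0.53), Rps15 (0.53), Rps19 (0.53), Rps2 (0.51), Rpl13a (0.51) and Rpl39 (0.50). The 7 at the other end were Rps4l (-0.10), Rpl36a (0.01), Rpl22l1 (0.02), Rpl7l1 (0.05), Rpl22 (0.10), Rpl7 (0.13) and Rpl23 (0.16). The software error of each of these differences was 0.20.

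The direction of that shift was set by the scaling. Centred on the spike-in probes, 65 of 80 members were below their adherent level with a median of -0.10, while the median of all genes was -0.37. With cyclic loess, 47 of 80 were below with a median of -0.03, and with quantile normalisation the median was 0.03. Without scaling the median was 0.06, with 58 of 80 higher. Bright genes in general shared the shift, as the 134 other genes with a mean signal of at least 100000 had a median of 0.26, with 113 higher. All probes of that brightness outside the members, with or without a symbol, had a median of 0.32.

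Ribosomal proteins whose genes have other names were also lower. The stalk proteins Rplp0, Rplp1 and Rplp2, which recruit elongation factors, had log2 differences of -0.64, -0.82 and -0.71 in suspension and 1.00, 1.14 and 1.11 on the return. Rpl36al gave -0.46 and 0.61. Fau, a fusion of a ubiquitin-like part with a ribosomal protein, gave -0.22 and 0.64. All 6 genes of this list were lower in suspension with a median of -0.55, and 3 were over 1.5-fold lower, where 26.3% of all genes were.

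Other mRNAs known to carry a TOP tract were lower in suspension too. Of 19 such genes, all 19 were lower in suspension with a median of -0.76. Of these, 13 were over 1.5-fold lower, where 26.3% of all genes were. All 19 were higher on the return with a median of 0.96. Nap1l1, a histone chaperone, gave -1.80, Hnrnpa1, an RNA-binding protein, -1.63 and Npm1, the nucleolar phosphoprotein nucleophosmin, -1.56. The smallest differences were -0.07 for Eif3k, -0.12 for Tpt1 and -0.27 for Eif3f. The quartiles of these 19 genes, -1.24 and -0.39, lay further apart than those of the members.

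Genes that build ribosomes had a larger median difference in suspension than the ribosomal proteins, with no test of the contrast. All 30 genes for ribosome assembly were lower, with a median of -1.01, 26 over 1.5-fold and 15 over 2-fold. Of all genes, 26.3% were over 1.5-fold and 14.7% over 2-fold lower. Dkc1, the pseudouridine synthase of the nucleolus, had processed signals of 1090, 240 and 698 and a log2 difference of -2.28. Nop58 and Nop56, the core proteins of the particles that methylate ribosomal RNA, gave -1.91 and -1.68. All 30 were higher on the return with a median of 1.05, but against adherent cells 16 were below and 14 above, with a median of -0.02, where the members had 0.33. The smallest differences in suspension were -0.33 for Nop10, -0.36 for Pes1 and -0.36 for Heatr1.

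The polymerases that make ribosomal and transfer RNA were mixed. Of 19 subunits and factors of RNA polymerases I and III, 15 were lower in suspension with a median of -0.40. Of the 19, 7 were over 1.5-fold lower, where 26.3% of all genes were, and 2 over 1.5-fold higher, where 25.4% were. Polr3d, Polr1e and Polr1a were the lowest at -1.19, -1.18 and -1.06. Maf1, the repressor of RNA polymerase III, was higher by 1.11, Ubtf, the activator of ribosomal RNA genes, by 0.78 and Taf1c by 0.29.

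Of 30 genes for initiation and elongation of translation, 28 were lower in suspension with a median of -0.52. Of the 30, 13 were over 1.5-fold lower, where 26.3% of all genes were. Eif1ax (-1.38), Eif3j1 (-1.20) and Eif2s2 (-1.17) were the lowest, and Eif2ak3, the kinase PERK of the unfolded protein response, gave 0.54. Eif2b2 gave -0.17. Eif5b was well above background only in non-adherent cells, with processed signals of 15.5, 40.2 and 11.5, and was named after its values were seen. Of 38 symbols listed for cytosolic tRNA ligases 20 were matched, and 19 of those were lower with a median of -0.82, led by Gars (-1.45), Mars1 (-1.34) and Kars (-1.21). Farsb at -0.25, Farsa at -0.06 and Qars at 0.01 had the smallest differences.

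Genes for the control of TOP mRNAs by mTORC1 were split. Of 22 genes, 10 were lower and 12 higher in suspension with a median of 0.02. Eif4ebp1, the repressor of cap-dependent initiation, gave -1.06, the S6 kinase gene Rps6kb1 -0.88 and Larp1 -0.71. Sesn1, a stress-induced inhibitor of mTORC1, had processed signals of 1209, 9253 and 1357 and a difference of 2.84. Rragc, a GTPase that brings mTORC1 to the lysosome, gave 1.15 and Deptor, an inhibitor of mTOR, 1.11. These are mRNA levels, and the activity of mTORC1 was not measured.

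The list of the MYC family mixed genes such as Myc, which drive ribosomal genes in many cells, with genes that pair with MAX or oppose MYC. It held the gene with the largest difference among the lists of ribosome and translation genes. Mycn had processed signals of 1086, 25.9 and 912 and log2 differences of -5.49 ± 0.28 and 5.50 ± 0.28. Its non-adherent signal was near the lowest that was well above background on that array, 14.0, so the size of these differences is uncertain. Myc had signals of 1754, 940 and 1256, so that it was lowest in suspension, with a difference of 0.78 on the return, and Mxd3, a MAX partner, gave -1.67 in suspension. Mnt, which opposes MYC, was higher by 1.26, Max by 0.45 and Mxd1 by 0.12. Over the 9 genes measured, whichever way they act, 6 were lower in suspension with a median of -0.89.

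**Figure D5:**
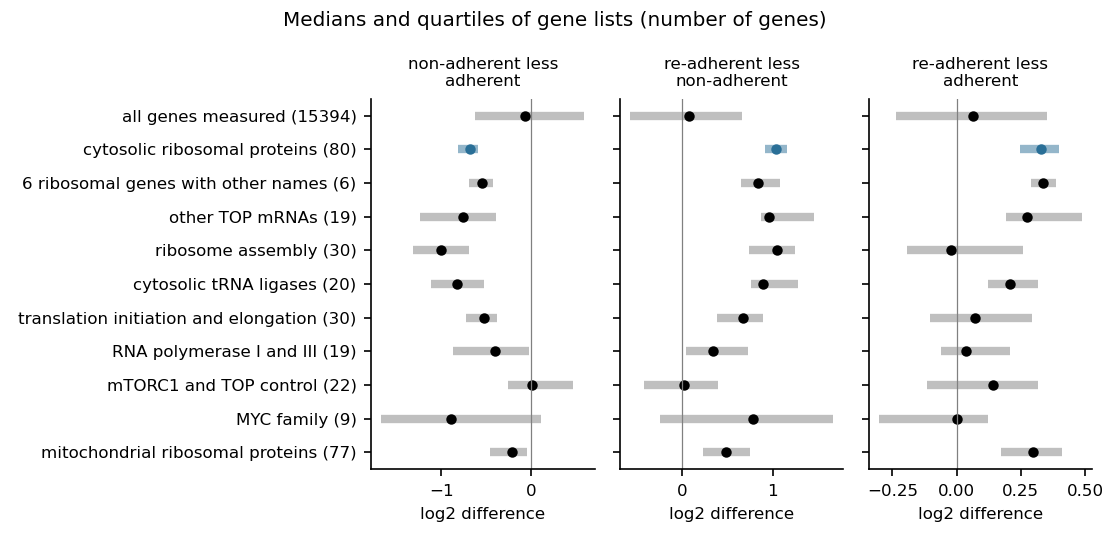
Median (circle) and quartiles (bar) of the log2 differences of gene lists for each pair of arrays, with the number of genes in brackets. The cytosolic ribosomal proteins have the narrowest bar in suspension, at a median of -0.68, the ribosome assembly genes lie further left at -1.01, and the mitochondrial ribosomal proteins lie nearer to 0 at -0.21.

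The proteins of the mitochondrial ribosome, which is built separately and translates the few mRNAs of the mitochondrial genome, differed less. Of 77 genes 58 were lower in suspension with a median of -0.21, and 10 were over 1.5-fold lower, where 26.3% of all genes were. Mrps12 (-0.87), Mrpl52 (-0.85) and Mrpl47 (-0.74) were the lowest, and Mrps23 (0.53), Mrps18a (0.48) and Mrpl34 (0.47) the highest. On the return 73 were higher with a median of 0.48, and 26 of 77 were over 1.5-fold higher, a share near the 27.7% of all genes. Against adherent cells 70 of 77 were higher with a median of 0.30, next to 0.33 for the cytosolic set. Large and small mitochondrial subunits had medians of -0.20 and -0.27 in suspension.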

How the data were processed

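The authors deposited 1 scanner file per array from 1-colour mouse arrays, made with Agilent Feature Extraction 10.10.1.1 (genome label mm9), with processed intensity in linear units, its error and flags. They also deposited a matrix, whose intensity is the processed intensity times 1 constant per array (1.52, 1.52 and 1.62); how it was chosen is not given in the sources used here.

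From the processed intensity, log2 values were taken and the 75th percentile of each array (541 to 697 units over 59305 spots that were no controls) was subtracted. Spots flagged as outliers, 154 to 180 per array, were left out, and spots of a probe were averaged. Of 37881 transcript names, 21465 matched a RefSeq accession (GRCm38.p6) without its version. Each gene took the probe brightest in the mean of the 3 arrays, among those well above background on 1 or more. Of the spots, 53.9 to 59.9% were well above background. No member spot was saturated or flagged. Differences past 1.5-fold and 2-fold were counted, and with 1 array per group no p-value was computed. Probes spotted 10 times gave an SD of 0.06 to 0.08 for the 3 pairs. A bound uses the lowest signal well above background.

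Named were the 8 members with the largest and the 8 with the smallest differences of each pair, the copies, members with known further roles, and the 3 lowest and 3 highest genes in suspension of the other lists, apart from cell markers. A few genes that this rule names, and their probes, are not reported here, and stay in counts and medians. Members and lists were chosen with earlier results of these data known. Alternatives were other scalings, the authors' matrix, normexp (on median spot signals, which the files hold), filters, rules for several probes, a floor, array patches and other member lists. Python 3.11.15, numpy 2.4.6, pandas 2.3.3, R 4.3.3 and limma 3.58.1 were used, and the steps were tested on simulated data.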

Additional observations from a re-analysis of the deposited data

How the results depend on the processing

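Leaving out an array leaves no group to compare, and no value has a replicate error. No paired analysis was possible because the groups hold only 1 array each. The causes of the changes below were not tested. Shares of all genes past 2-fold were not counted under the alternatives, nor any share with every probe on its own.

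Without scaling, the members' median log2 difference was -0.58 in suspension, 0.67 on the return and 0.0635 for re-adherent against adherent cells. In suspension 40 members were then over 1.5-fold and 3 over 2-fold lower, and on the return 3 were over 2-fold higher. Of all genes, 23.0% were over 1.5-fold lower in suspension without scaling. Centring on the median left 3 over 2-fold lower in suspension and a median of 0.42 for re-adherent against adherent cells. There 10 members were over 1.5-fold higher, where 15.7% of all genes were.

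Quantile normalisation gave medians of -0.25, 0.29 and 0.0341, or -0.23, 0.31 and 0.0347 less the median of all genes. In suspension 6 members were over 1.5-fold and 1 over 2-fold lower, and on the return 7 and 2 were higher. Of all genes, 24.7% were over 1.5-fold lower in suspension and 23.6% over 1.5-fold higher on the return. Rps28 turned to -0.12 on the return. Cyclic loess gave medians of -0.24, 0.23 and -0.0254, or -0.31, 0.30 and -0.0673 less all genes, with 6 and 1 lower in suspension and 6 and 2 higher on the return. Of all genes, 21.5% were then over 1.5-fold lower in suspension and 22.0% over 1.5-fold higher on the return. On the return Rpl37a turned to -0.11, Rpl41 to -0.13, Rps14 to -0.14 and Rps28 to -0.15.

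Centring on the E1A spike-in probes gave medians of -0.98, 0.90 and -0.10, with 35 over 2-fold lower in suspension and 23 over 2-fold higher on the return. The authors' matrix gave -0.58, 0.76 and 0.15, with 40 over 1.5-fold and 3 over 2-fold lower in suspension and 8 over 2-fold higher on the return. Of all genes, 22.9% were over 1.5-fold lower in suspension by that matrix. Less the median of all genes, normexp gave 0.85 on the return and 0.20 for re-adherent against adherent cells.

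With no filter on dim probes the medians less all genes were -0.46, 0.76 and 0.17. The dim genes Rpl10l and Rpl3l added 2 members over 1.5-fold and 1 over 2-fold higher in suspension. They also added 1 over 1.5-fold and 1 over 2-fold lower on the return, and 1 over 1.5-fold higher against adherent cells. Of all genes, 21.9% were over 1.5-fold higher in suspension, 20.4% over 1.5-fold lower on the return and 13.0% over 1.5-fold higher against adherent cells. The median over a gene's probes put 8 over 2-fold lower in suspension. With every probe on its own, 128 probes were past 1.5-fold lower in suspension, 21 past 2-fold lower and 1 past 1.5-fold higher. On the return 152 were over 1.5-fold higher, 91 over 2-fold higher and 1 over 1.5-fold lower, and 3 were over 1.5-fold higher against adherent cells.

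The counts and medians stayed within their limits with a filter on all 3 arrays, a floor, patches left out, Rps4l, Rpl39l, Rps27l, Rpl22l1 and Rpl7l1 left out, or the 6 genes with other names added. Under all alternatives the median of the large less that of the small subunit ran from -0.0551 to 0.012 in suspension, from -0.0204 to 0.0532 on the return and from -0.003 to 0.022 for re-adherent against adherent cells.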
